A study of Rattus norvegicus with 6 samples.

Results

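Transcripts of the metalloproteinases and of their tissue inhibitors were followed in rat (Rattus norvegicus) cultures exposed to polystyrene nanoplastics. The members were all gene symbols of the deposited count table that name a matrix metalloproteinase (Mmp and a digit), an ADAM (Adam and a digit), an ADAMTS or ADAMTS-like gene (Adamts), or one of the inhibitors Timp1 to Timp4. This gave 61 of 16876 symbols, made up of 21 MMP, 20 ADAM, 13 ADAMTS, 3 ADAMTS-like and 4 TIMP genes. The 6 libraries are labelled as primary cultured microglia, shaken off mixed co-cultures. After this, 3 were kept for 24 h with PSNPs, the nanoplastics, and 3 for 24 h with IR-813, a near-infrared dye. RNA was poly(A)-selected. The labels state no dose, genotype, strain or age. They do not say whether replicates are separate cultures or animals, and p-values therefore cover only how these 6 samples spread, which may be technical variation. No untreated library was analysed here, and higher or lower means with PSNPs relative to IR-813.

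Matrix metalloproteinases are zinc-dependent enzymes that are made as inactive precursors and cut collagens, gelatins, proteoglycans and many signalling proteins, some from the extracellular space and some from the plasma membrane. ADAMs are membrane proteins, several of which cut growth factors, cytokines and adhesion molecules off the cell surface, while others have lost the active site and act as adhesion or synaptic partners. ADAMTS enzymes are secreted and process matrix proteoglycans and procollagens, ADAMTS-like proteins share their ancillary domains but have no protease domain, and TIMPs block the active site. In brain tissue these genes are known for remodelling the perineuronal and perivascular matrix and for shedding receptors from glia.

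The libraries held between 19166605 and 22553507 counts, of which the family took 0.265%, 0.268% and 0.230% in the PSNPs libraries and 0.212%, 0.211% and 0.210% in the IR-813 libraries. Although labelled as microglia, the libraries carried markers of other glia and of neurons as well. The astrocyte and oligodendrocyte-lineage lists each summed higher than the microglia list in every library. Such sums depend on the genes listed and do not give shares of cells. All 9 listed microglia markers were detected and summed to between 538 and 695 CPM (read counts scaled to library size) with PSNPs and between 861 and 1147 CPM with IR-813, and 7 of the 9 were lower with PSNPs. The 8 astrocyte markers summed to between 7412 and 8271 CPM with PSNPs and between 6278 and 8006 CPM with IR-813 (4 higher, 0 lower), and none of them was at 0. The 8 oligodendrocyte-lineage markers, all lower with PSNPs, summed to between 2876 and 3334 CPM with PSNPs and between 5334 and 6176 CPM with IR-813. The 7 neuron markers (6 lower) summed to between 118 and 151 CPM with PSNPs and between 269.9 and 283 CPM with IR-813. For 8 fibroblast, pericyte and endothelial markers, of which Col1a2 was at 0 in every library, the sums were 74.4 to 85.1 CPM with PSNPs and 75.2 to 127 CPM with IR-813 (2 of 5 tested were lower). Markers of infiltrating myeloid and lymphoid cells stayed at or under 0.159 CPM, with 3 of 5 at 0. In such bulk samples fewer cells of a type and less RNA per cell cannot be told apart, and the part of these shifts in the family's differences was not tested. PSNPs replicate 3 stood apart, with a correlation of log CPM across genes of at most 0.974 with the other PSNPs libraries, against 0.995 between PSNPs replicates 1 and 2.

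Members of the family moved in both directions, also within a role. The gelatinase genes, Mmp11, Mmp12, the membrane enzyme Mmp14, Adamts1 and all ADAMTS-like genes were higher with PSNPs, whereas the stromelysins Mmp3 and Mmp10, Adam11, Adamts3, Adamts5, Timp3 and Timp4 were lower. Of the 61 members, 42 passed the filter on low counts. With genes called at a Benjamini-Hochberg adjusted p under 0.05 in edgeR (quasi-likelihood fit over all tested genes), 12 of the 42 rose and 11 fell. Among all 11679 tested genes 41.0% were called, with 20.9% higher and 20.1% lower, so that the family's 54.8% lay above a background that was itself large. The median log2 fold change of the 42 was 0.04, beside −0.01 over all tested genes. With library size as the only scaling it was −0.03, beside −0.09 over all tested genes, and 12 members rose and 12 fell. In that setting 41.1% of all genes were called, with 16.6% higher and 24.4% lower. More than 2-fold changes were called for 12 members, beside 13.5% of all tested genes. The groups of libraries did not overlap for 28 of the 42, beside 61.4% of all tested genes, with PSNPs above IR-813 for 13 (30.0% of all genes) and below for 15 (31.4%). Without PSNPs replicate 3, 17 members rose and 13 fell of 44 tested, beside 59.9% of all genes called (30.4% higher, 29.5% lower).

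**Figure D1:**
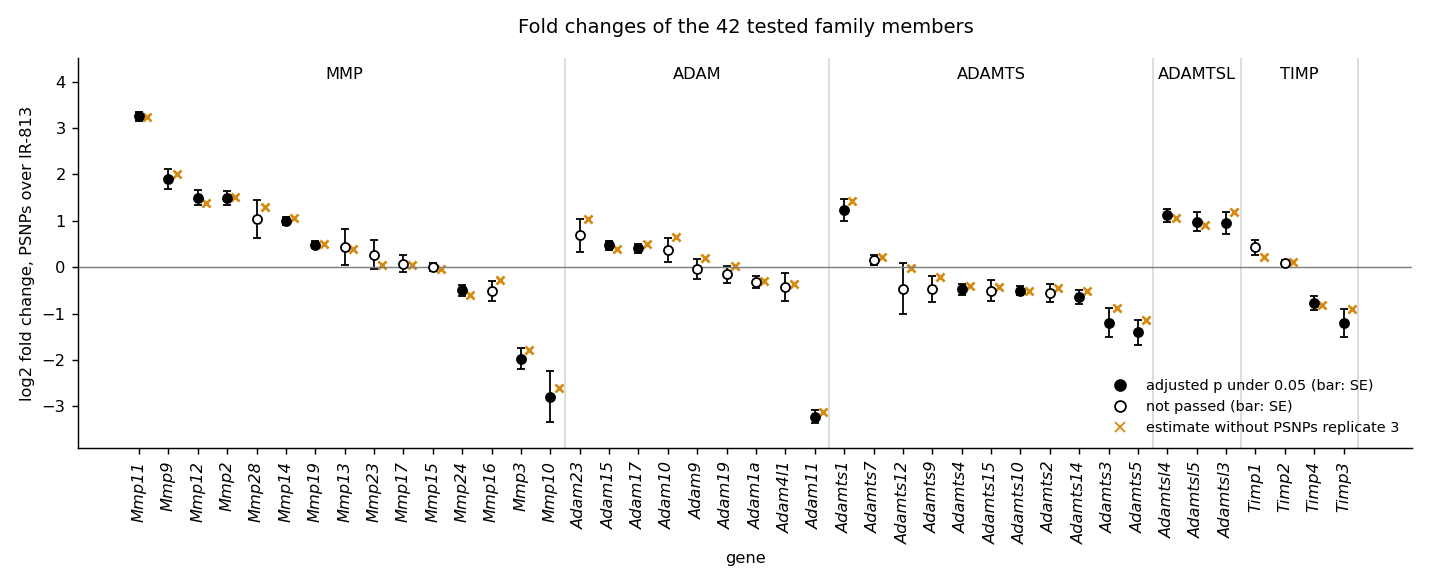
The plot gives the log2 fold change (PSNPs over IR-813) on the vertical axis for each of the 42 tested members, grouped by subfamily and ordered by size; circles are estimates from 3 against 3 libraries with their SE, filled where the adjusted p was under 0.05, and crosses are estimates without PSNPs replicate 3. Mmp11 at 3.25 and Adam11 at −3.22 lie farthest from 0, and the crosses of Adam10, Adam23 and Timp3 sit visibly above their circles.

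Levels of different genes were compared on the deposited log2 values, which carry a factor per gene that behaves like transcript length. Timp1 and Timp2 stood first and second in both groups. Timp1 had a mean of 8.35 ± 0.37 with PSNPs and 7.93 ± 0.07 with IR-813 (deposited log2 value, SD, n = 3), and Timp2 had 7.79 ± 0.04 and 7.70 ± 0.07 in the same order. With PSNPs the next were Mmp14 (6.68 ± 0.10), Adam15 (6.68 ± 0.16) and Mmp11 (6.36 ± 0.07), and the levels of Mmp14 and Adam15 did not differ beyond their spread. With IR-813 the next were Adam15 (6.21 ± 0.09), Timp3 (5.90 ± 0.29) and Mmp14 (5.70 ± 0.06), and here Timp3 and Mmp14 did not differ beyond theirs. Mmp11 held place 5 of 42 with PSNPs and place 19 with IR-813. Timp3 held place 12 with PSNPs and place 4 with IR-813, and Adam11 place 31 and place 13.

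As a share of the summed per-length level of all members, MMP transcripts made up 24.3%, 24.6% and 23.2% in the PSNPs libraries and 15.7%, 15.5% and 16.3% in the IR-813 libraries, so the groups did not overlap. Without Mmp11 the MMP share was 17.9%, 17.9% and 16.4% with PSNPs and 14.9%, 14.5% and 15.4% with IR-813. The TIMP share was 44.7%, 44.0% and 53.3% with PSNPs and 54.1%, 54.1% and 53.0% with IR-813. It was lower in PSNPs replicates 1 and 2 than in every IR-813 library, and PSNPs replicate 3 lay among the IR-813 libraries. These shares are given as descriptions with no test.

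**Figure D2:**
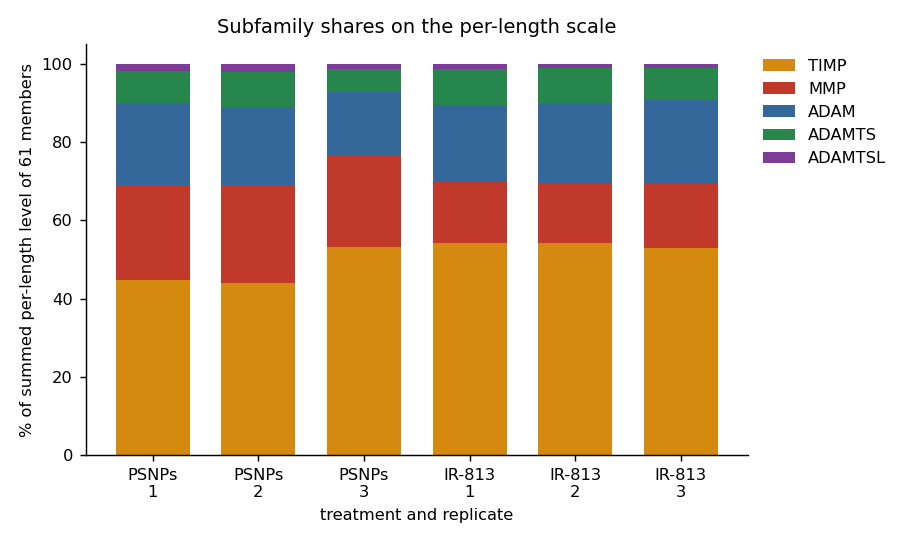
Stacked bars give, for each library (PSNPs replicates 1 to 3, then IR-813 replicates 1 to 3), the share in % of each subfamily in the summed per-length level (unlogged deposited values) of the 61 members. The MMP part spans 23.2% to 24.6% with PSNPs and 15.5% to 16.3% with IR-813, and the TIMP part of PSNPs replicate 3 (53.3%) is as large as in the IR-813 libraries.

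Of 21 MMP genes 15 were tested, of which 6 rose, 3 fell and 6 did not pass (60% called, beside 41.0% of all tested genes). Among all tested genes 20.9% were called higher and 20.1% lower. The highest fold change was that of Mmp11, stromelysin-3, which unlike most secreted MMPs is activated by furin inside the cell. With PSNPs it stood at 168, 174 and 180.0 CPM, given here and throughout in the order of the replicate numbers, and with IR-813 at 17.0, 19.7 and 18.2 CPM. The mean was 9.52 times higher with PSNPs (log2 fold change 3.25 ± 0.09, estimate ± SE; edgeR adjusted p = 3.95e-05), and the spread within each group was small beside this gap. Both gelatinases, which digest denatured collagen and basement membrane, rose as well. Mmp2 stood at 23.9, 25.5 and 24.4 CPM with PSNPs and at 10.0, 6.89 and 9.21 CPM with IR-813 (log2 fold change 1.50 ± 0.15). Mmp9 stood at 18.8, 14.8 and 13.8 CPM with PSNPs and at 3.71, 5.45 and 3.47 CPM with IR-813 (1.91 ± 0.22). The lowest PSNPs library lay above the highest IR-813 library for both, and the edgeR adjusted p was 5.94e-04 for Mmp2 and 8.41e-04 for Mmp9. Mmp12, the macrophage elastase, had 17.7, 14.4 and 20.6 CPM with PSNPs and 6.22, 5.68 and 6.71 CPM with IR-813 (1.50 ± 0.16, edgeR adjusted p = 7.30e-04). In the same libraries 7 of the 9 microglia markers were lower with PSNPs, while Itgam and Trem2 did not pass. The part of these shifts in the level of Mmp12 was not tested.

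**Figure D3:**
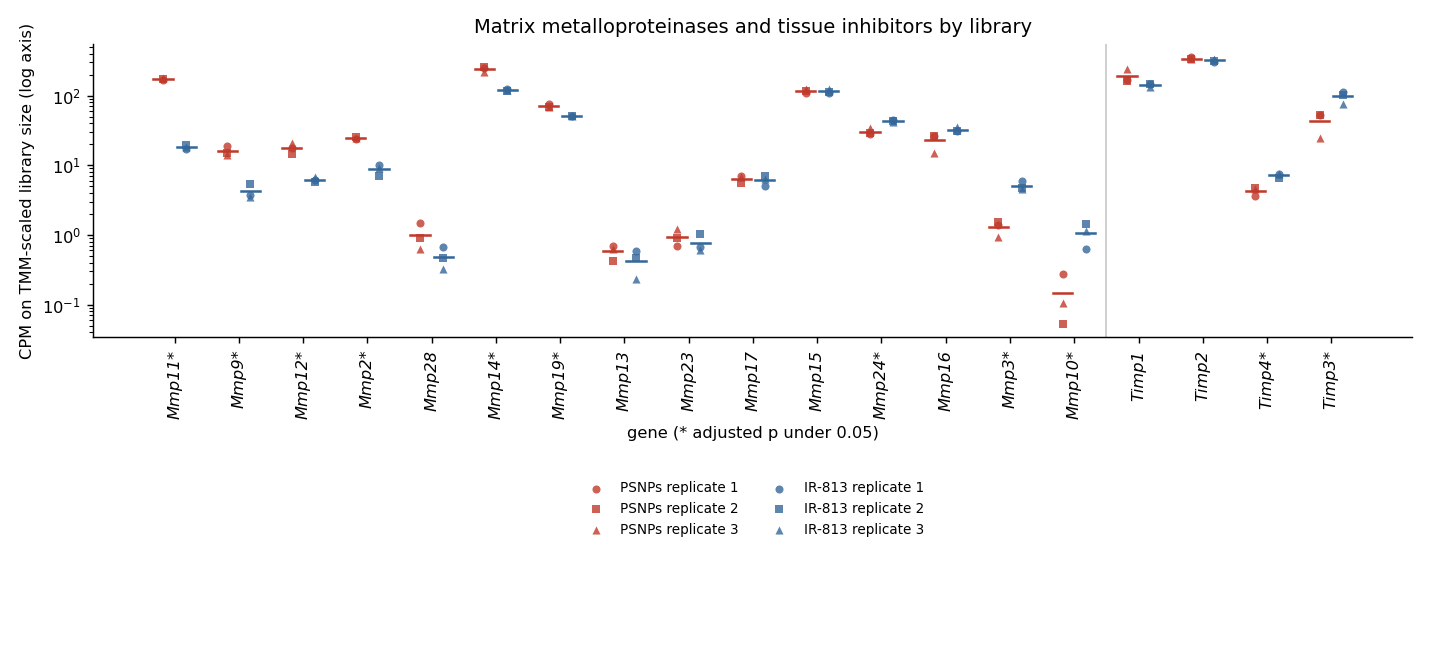
The plot gives CPM on a log axis for the 15 tested MMP genes and, right of the line, the 4 TIMP genes, in each PSNPs library (red) and each IR-813 library (blue); symbols mark replicates, bars mark group means and asterisks mark an adjusted p under 0.05. Mmp11 separates by about a factor of 9.52, Mmp3 and Mmp10 lie lower with PSNPs, and Timp1 in PSNPs replicate 3 (243 CPM) and Timp3 in the same library (24.3 CPM) stand off from their group.

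The other two stromelysins, enzymes of broad matrix specificity that can also activate other MMPs, went the other way from Mmp11. Mmp3 had 1.38, 1.54 and 0.939 CPM with PSNPs and 5.95, 4.75 and 4.49 CPM with IR-813, a fall by 1.97 ± 0.23 on the log2 scale (edgeR adjusted p = 8.63e-04). Mmp10 was close to the detection limit, with 6, 1 and 2 counts in the PSNPs libraries and 14, 31 and 25 counts in the IR-813 libraries. It fell by 2.79 ± 0.56 (edgeR adjusted p = 0.00768), with a log2 fold change of −3.67 without PSNPs replicate 1. Among the remaining secreted enzymes Mmp19 rose to 71.5 ± 4.27 CPM with PSNPs, against 51.0 ± 0.173 CPM with IR-813 (SD, n = 3 each). Mmp28, epilysin, stood at 1.00 ± 0.431 CPM with PSNPs and 0.487 ± 0.175 CPM with IR-813 and did not pass (edgeR adjusted p = 0.0828). Its adjusted p was 0.0214 without PSNPs replicate 3 and 0.0397 with the replicate block, and 13 alternatives gave 0.0214 to 0.253. The collagenase gene Mmp13 had between 5 and 15 counts per library and did not pass.

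The stromelysins Mmp3 and Mmp10 and the elastase Mmp12 belong to a cluster of MMP genes, and their upstream sequences are shown because the genes lie side by side and share motifs while their levels moved in opposite directions. On the RefSeq build GRCr8, which is not the build of the counts, 9 members of the family follow each other on chromosome 8 in the order Mmp13, Mmp12, Mmp3, Mmp1, Mmp10, Mmp8, Mmp27, Mmp20 and Mmp7. Of these, Mmp12 rose, Mmp3 and Mmp10 fell, Mmp13 did not pass, and the other 5 were under the count filter. The table of promoter windows (250 bases before to 50 after the annotated start) held 42 of the 61 members. These are not the 42 tested members, and Mmp2, Mmp9, Mmp14 and Adam11 are not among them. The lines below give the 100 bases before the start, 5′ to 3′ on the gene's own strand, which is plus in each case. They are chr8:12866552-12866651 for Mmp12, chr8:12925181-12925280 for Mmp3, chr8:12974607-12974706 for Mmp10, chr8:12782729-12782828 for Mmp13 and chr20:12730184-12730283 for Mmp11, which lies outside the cluster. Capitals mark TGANTCA (a loose form of the AP-1 motif, with any base at its centre), TATAAA (the TATA box) and GGGCGG (the GC box). Each was searched on both strands, and where matches touch or overlap the capitals run together.
Mmp12: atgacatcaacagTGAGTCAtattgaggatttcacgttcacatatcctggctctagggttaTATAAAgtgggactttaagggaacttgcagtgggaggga
Mmp3: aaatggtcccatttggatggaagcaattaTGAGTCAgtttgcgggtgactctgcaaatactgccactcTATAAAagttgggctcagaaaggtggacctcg
Mmp10: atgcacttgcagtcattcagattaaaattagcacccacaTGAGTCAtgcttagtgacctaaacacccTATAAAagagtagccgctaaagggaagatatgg
Mmp13: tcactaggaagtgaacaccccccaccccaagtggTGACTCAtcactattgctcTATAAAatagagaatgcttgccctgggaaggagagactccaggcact
Mmp11: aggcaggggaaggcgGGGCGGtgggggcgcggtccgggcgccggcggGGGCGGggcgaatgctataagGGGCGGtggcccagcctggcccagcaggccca
In all 4 cluster windows a TGANTCA match precedes a TATAAA match, and the Mmp11 window holds neither of these but 3 matches of GGGCGG in the part shown. In the whole 300-base windows, both TGANTCA and TATAAA were found for 7 of the 9 cluster genes and for 1.36% of the 33469 windows in the table. TGANTCA, with or without TATAAA, was in 8 of 42 member windows and 7.33% of all windows, TATAAA in 15 of 42 and 14.2%, and GGGCGG in 20 of 42 and 33.1%. The cluster genes supplied 7 of the member windows with TGANTCA and 8 of those with TATAAA, so these counts do not describe the family outside the cluster. A match is a description of letters only. The windows of Mmp12, which rose, and of Mmp3 and Mmp10, which fell, could not be told apart by the presence of these motifs.

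Of 6 membrane-bound MMP genes, 1 rose, 1 fell and 4 did not pass (33.3% called, beside 41.0% of all tested genes). Mmp14 encodes MT1-MMP, which cuts collagen at the cell surface and activates the precursor of MMP2 together with TIMP2. It stood at 252, 254 and 216 CPM with PSNPs and at 126, 117 and 119 CPM with IR-813 (log2 fold change 1.00 ± 0.09, edgeR adjusted p = 3.79e-04), with no overlap between groups. Mmp24, which encodes MT5-MMP of the nervous system, had 27.7, 28.8 and 34.6 CPM with PSNPs and 44.5, 43.1 and 41.4 CPM with IR-813, a fall by 0.50 ± 0.11 (edgeR adjusted p = 0.0119). This call was lost without IR-813 replicate 1 or 2 (adjusted p of 0.0544 in each case) and with the length correction described below (0.249), and 13 alternatives gave 1.78e-04 to 0.249. Mmp15 stood at 116 ± 6.37 CPM with PSNPs and 115 ± 9.02 CPM with IR-813 (SD, n = 3 each), the smallest difference among the tested members. Mmp17 stood at 6.40 ± 0.764 and 6.07 ± 1.02 CPM, Mmp23 at 0.931 ± 0.256 and 0.766 ± 0.227 CPM, and Mmp16 at 22.8 ± 6.67 and 32.4 ± 2.26 CPM, each with PSNPs and then IR-813, and none of the 3 passed. Mmp16 was lower in each PSNPs library than in any IR-813 library and was called without PSNPs replicate 3, at −0.28 with an edgeR adjusted p of 0.0145, and 13 alternatives gave 0.0145 to 0.241.

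Among the inhibitors 2 fell, 0 rose and 2 did not pass (50% called). Beside this stand 41.0% of all tested genes called, with 20.9% higher and 20.1% lower. Timp3 encodes the matrix-bound inhibitor, which also blocks ADAM17 and the aggrecanases. It stood at 51.8, 52.1 and 24.3 CPM with PSNPs and at 113, 103 and 76.9 CPM with IR-813, with no overlap and with the third library lowest in both groups. The fall was 1.19 ± 0.30 on the log2 scale (edgeR adjusted p = 0.0186) and 0.91 without PSNPs replicate 3. The call was lost without IR-813 replicate 1 (adjusted p = 0.0695) or 2 (0.0614), and 13 alternatives gave 2.02e-04 to 0.0695. Timp4 stood at 3.59, 4.67 and 4.49 CPM with PSNPs and at 7.61, 6.66 and 7.40 CPM with IR-813 (log2 fold change −0.77 ± 0.15, edgeR adjusted p = 0.00750).

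Timp1, the inducible inhibitor of most soluble MMPs, had 167, 162 and 243 CPM with PSNPs and 145, 146 and 133 CPM with IR-813. Every PSNPs library was above every IR-813 library, and it did not pass (log2 fold change 0.43 ± 0.16, edgeR adjusted p = 0.0729). It was called without PSNPs replicate 2 (0.54, adjusted p = 0.0482) and without PSNPs replicate 3 (0.22, adjusted p = 0.0114), whereas the length correction gave 0.10 with an adjusted p of 0.284, and 13 alternatives gave 0.0114 to 0.284. Timp2, the partner of MT1-MMP in MMP2 activation, stood at 354, 335 and 330.1 CPM with PSNPs and at 308, 313 and 336 CPM with IR-813. These groups overlapped, at 0.09 ± 0.08 with an edgeR adjusted p of 0.376, and with the length correction the value was −0.025.

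Of 20 ADAM genes 9 were tested, of which 2 rose, 1 fell and 6 did not pass (33.3% called, beside 41.0% of all tested genes). Adam15 and Adam17 rose, with means 1.38 and 1.33 times higher with PSNPs. Of these sheddase genes Adam17, which encodes the enzyme that releases TNF and many EGF-receptor ligands, stood at 148, 134 and 117 CPM with PSNPs and at 96.6, 100.4 and 103 CPM with IR-813 (log2 fold change 0.41 ± 0.10, edgeR adjusted p = 0.0177). The call was lost without PSNPs replicate 1 (adjusted p = 0.0566) and without IR-813 replicate 1 (0.0767) or 2 (0.0740), and 13 alternatives gave 3.22e-04 to 0.0767. Adam15 stood at 274, 253 and 307 CPM with PSNPs and at 189, 201 and 214 CPM with IR-813 (0.47 ± 0.10, edgeR adjusted p = 0.00914), also without overlap.

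Adam10 encodes the main sheddase of amyloid precursor protein, Notch and N-cadherin. It had 189, 191 and 90.6 CPM with PSNPs and 118, 119 and 127 CPM with IR-813. PSNPs replicates 1 and 2 were above, and PSNPs replicate 3 below, every IR-813 library, and it did not pass (log2 fold change 0.37 ± 0.27, edgeR adjusted p = 0.296). Without PSNPs replicate 3 the value was 0.65 with an adjusted p of 5.37e-05, and 13 alternatives gave 5.37e-05 to 0.587. Adam9 had the same arrangement, with 128, 126 and 69.8 CPM with PSNPs and 108, 113 and 113 CPM with IR-813 (adjusted p of 0.890 with all libraries and 0.00766 without PSNPs replicate 3, and 13 alternatives gave 0.00766 to 0.937). Adam19 stood at 37.5 ± 9.12 CPM with PSNPs and 41.8 ± 3.88 CPM with IR-813 and did not pass. Adam1a (5.49 ± 0.154 and 6.81 ± 0.639 CPM) and Adam4l1 (1.07 ± 0.418 and 1.44 ± 0.199 CPM, both with PSNPs and then IR-813) did not pass either.

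The pair of members that lack the active site differed from each other. Adam11, a brain ADAM without protease activity, stood at 3.13, 3.45 and 2.56 CPM with PSNPs and at 27.7, 29.9 and 27.7 CPM with IR-813. Its mean with PSNPs was 10.7% of that with IR-813, a fall by 3.22 ± 0.14 on the log2 scale (edgeR adjusted p = 5.88e-05). The sizes of this fall and of the Mmp11 rise differed by less than their SE. Adam11 had the larger one with library size only (−3.29, against 3.18 for Mmp11), without IR-813 replicate 1 (−3.24, against 3.20) and without PSNPs replicate 2 (−3.31, against 3.26). In the same libraries 6 of the 7 neuron markers were lower, with log2 fold changes from −4.19 (Gad1) to −1.53 (Syt1). The other, Stmn2, weighs heavily in their sum and stood at 91.5 ± 15.8 CPM with PSNPs and 91.5 ± 14.2 CPM with IR-813 (SD, n = 3 each). The part of these shifts in the fall of Adam11 was not tested. Adam23, which encodes a partner of the secreted synaptic protein LGI1, had 50.9, 44.6 and 17.7 CPM with PSNPs and 25.1, 22.8 and 22.3 CPM with IR-813. PSNPs replicates 1 and 2 were the highest and PSNPs replicate 3 the lowest of all libraries, and it did not pass (0.69 ± 0.35, edgeR adjusted p = 0.156). Without PSNPs replicate 3 it was at 1.03 with an adjusted p of 6.00e-05, and 13 alternatives gave 6.00e-05 to 0.394.

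**Figure D4:**
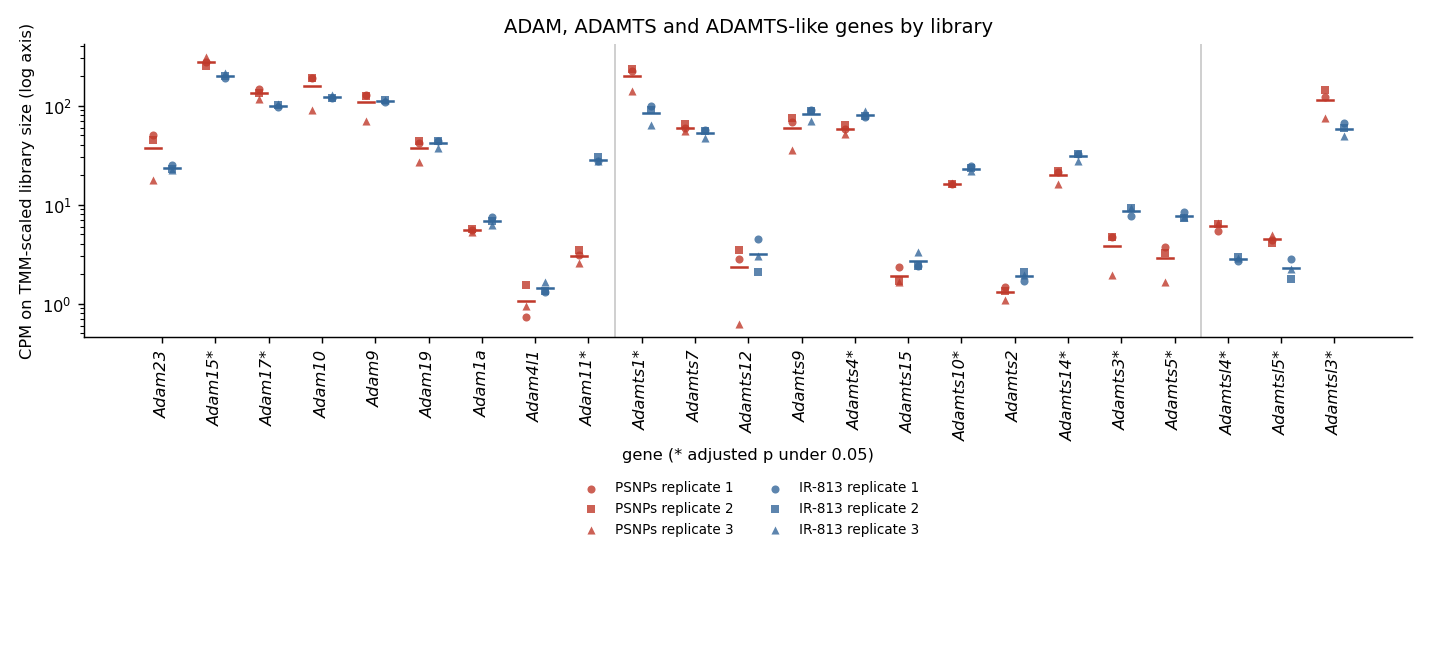
The plot gives CPM on a log axis for the 9 tested ADAM, 11 ADAMTS and 3 ADAMTS-like genes, separated by lines, in each PSNPs library (red) and each IR-813 library (blue); symbols mark replicates, bars mark group means and asterisks mark an adjusted p under 0.05. Adam11 lies at 2.56 to 3.45 CPM with PSNPs and 27.7 to 29.9 CPM with IR-813, and the triangles of PSNPs replicate 3 sit apart for Adam10, Adam9 and Adam23.

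Of 13 ADAMTS genes 11 were tested, of which 1 rose, 5 fell and 5 did not pass (54.5% called, beside 41.0% of all tested genes). Among the 5 proteoglycanases, which cut aggrecan, brevican, neurocan or versican, Adamts1 rose while Adamts4 and Adamts5 fell. Adamts1 stood at 222, 232 and 139 CPM with PSNPs and at 98.6, 90.8 and 63.5 CPM with IR-813 (log2 fold change 1.23 ± 0.24, edgeR adjusted p = 0.00688), with no overlap and with the third library lowest in both groups. Adamts5 stood at 3.77, 3.24 and 1.67 CPM with PSNPs and at 8.32, 7.27 and 7.54 CPM with IR-813 (−1.41 ± 0.27, edgeR adjusted p = 0.00699). Adamts4, also known as a gene of oligodendrocytes, had 57.9, 64.1 and 51.6 CPM with PSNPs and 75.9, 78.4 and 87.9 CPM with IR-813 (−0.48 ± 0.11, edgeR adjusted p = 0.0134). The 8 oligodendrocyte-lineage markers were lower in the same libraries, and their part in the fall of Adamts4 was not tested. The adjusted p for Adamts4 was 0.0511 without IR-813 replicate 3, and 13 alternatives gave 0.00204 to 0.0511. Adamts9, a versicanase gene, had 68.6, 74.9 and 35.4 CPM with PSNPs and 91.2, 87.6 and 69.2 CPM with IR-813 and did not pass (−0.47 ± 0.27, edgeR adjusted p = 0.203). Adamts15 stood at 1.90 ± 0.381 CPM with PSNPs and 2.72 ± 0.526 CPM with IR-813 and did not pass.

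Of the 3 procollagen N-proteinase genes, whose products trim the amino-terminal propeptide of collagens, Adamts3 and Adamts14 fell. Adamts3 had 4.73, 4.72 and 1.93 CPM with PSNPs and 7.65, 9.18 and 9.30 CPM with IR-813 (log2 fold change −1.19 ± 0.32, edgeR adjusted p = 0.0223). This call was lost when any 1 IR-813 library was left out (adjusted p of 0.0535, 0.0747 and 0.0730 without replicates 1, 2 and 3), and 13 alternatives gave 0.00102 to 0.0747. Adamts14 stood at 19.8 ± 3.08 CPM with PSNPs and 30.8 ± 2.87 CPM with IR-813 (−0.64 ± 0.14, edgeR adjusted p = 0.0124), and was not called without IR-813 replicate 1 (0.0542) or 2 (0.0575), and 13 alternatives gave 8.41e-04 to 0.0575. Adamts2 stood at 1.30 ± 0.189 CPM with PSNPs and 1.91 ± 0.200 CPM with IR-813 and missed the threshold (edgeR adjusted p = 0.0586), but passed with library size as the only scaling (0.0394, and 13 alternatives gave 0.0394 to 0.195). Adamts10, whose product binds fibrillin microfibrils, fell to 16.2 ± 0.182 CPM with PSNPs, against 23.1 ± 1.26 CPM with IR-813 (−0.51 ± 0.10), and had an adjusted p of 0.0705 with the length correction, and 13 alternatives gave 0.00113 to 0.0705. Adamts7 and Adamts12, which encode enzymes that cut cartilage oligomeric matrix protein, did not pass. Adamts7 stood at 59.5 ± 4.80 CPM with PSNPs and 53.4 ± 5.57 CPM with IR-813 and was called with the length correction (0.50, adjusted p = 0.0110, and 13 alternatives gave 0.0110 to 0.639). Adamts12 stood at 2.33 ± 1.51 and 3.21 ± 1.22 CPM, with PSNPs and then IR-813.

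All 3 ADAMTS-like genes rose, beside 20.9% of all tested genes called higher. Adamtsl3 had 122, 142 and 75.0 CPM with PSNPs and 66.0, 58.9 and 49.7 CPM with IR-813 (log2 fold change 0.96 ± 0.24, edgeR adjusted p = 0.0169), and the call was lost without IR-813 replicate 2 (adjusted p = 0.0594) or 3 (0.0679), and 13 alternatives gave 1.43e-04 to 0.0679. Adamtsl4, whose product associates with fibrillin microfibrils, had 5.42, 6.42 and 6.57 CPM with PSNPs and 2.68, 2.93 and 2.87 CPM with IR-813 (1.12 ± 0.15, edgeR adjusted p = 0.00146). Adamtsl5 had 4.41, 4.14 and 4.90 CPM with PSNPs and 2.82, 1.77 and 2.22 CPM with IR-813 (0.98 ± 0.20, edgeR adjusted p = 0.00855). For each of the 3 genes every PSNPs library lay above every IR-813 library.

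PSNPs replicate 3 decided several of these outcomes. It was below both other PSNPs libraries for 25 of the 42 tested members, above both for 10 and between them for 7. For 6 members, Adam10, Adam23, Adamts3, Adamts9, Adamts12 and Timp3, it was more than 2-fold lower than the mean of PSNPs replicates 1 and 2. Across all tested genes the ratio of PSNPs replicate 3 to PSNPs replicates 1 and 2 fell with a proxy for transcript length. This proxy, described below, is not shown to equal transcript length. The median log2 ratio was 0.34 in the fifth of genes with the smallest proxy and −0.44 in the fifth with the largest. In the same genes the log2 ratio of PSNPs replicates 1 and 2 to the IR-813 libraries had medians of 0.12 and −0.13. The Spearman correlation of the PSNPs replicate 3 ratio with the proxy was −0.57 over 11679 genes and −0.39 over the 42 members, as descriptions across genes that share these libraries. Removing each library's trend with this proxy gave 13 higher and 9 lower members, beside 48.0% of all genes called (24.8% higher, 23.1% lower). Adam10 and Adam23 remained short of the threshold at 0.53 and 0.76 on the log2 scale (edgeR adjusted p of 0.0785 and 0.105). The share of ribosomal RNA counts, 0.501% in PSNPs replicate 3, lay within the 0.310% to 1.56% of the other libraries. What sets this library apart was not tested.

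**Figure D5:**
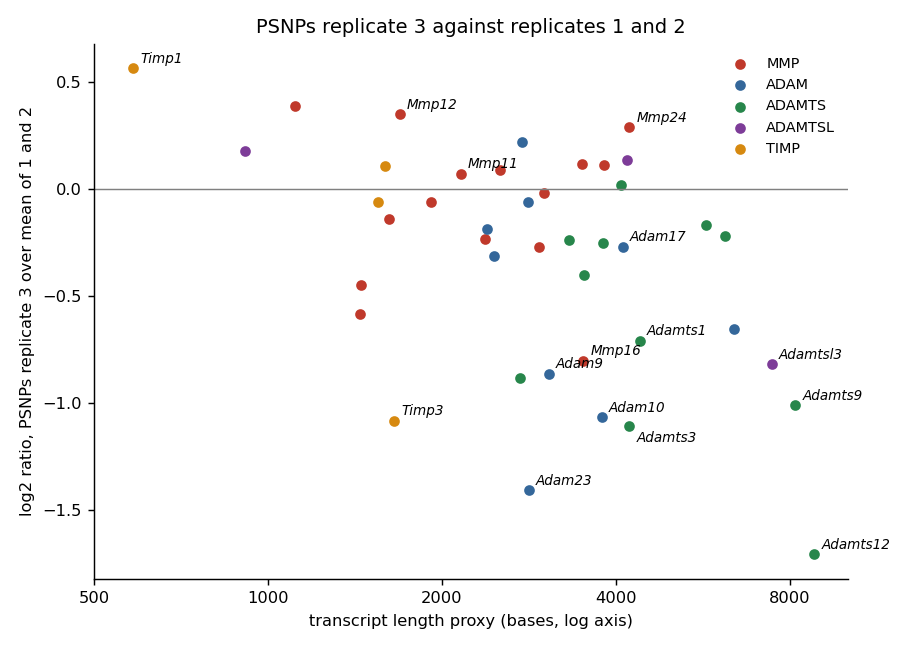
Each point is 1 of the 42 tested members, coloured by subfamily, with its transcript length proxy in bases on a log axis and the log2 ratio of its CPM in PSNPs replicate 3 to the mean of PSNPs replicates 1 and 2. Timp1, with the smallest proxy, is at 0.57, Mmp11 at 0.07, Adam10 at −1.06, Adam23 at −1.41 and Adamts12, with the largest, at −1.71.

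Counts for lists of genes that act with these enzymes stand beside the same background of 41.0% of all tested genes called, 20.9% higher and 20.1% lower. Of 15 tested convertases, cofactors and membrane regulators, 3 rose and 3 fell (40.0% called, near the background), and their median log2 fold change was 0.03. Without PSNPs replicate 3, 3 of the 15 rose and 5 fell, beside 59.9% of all genes called (30.4% higher, 29.5% lower). The tetraspanin genes of this list encode partners of ADAM10. Of these, Tspan5 and Tspan17 moved in opposite directions, and Tspan14, Tspan15 and Tspan33 did not pass. Tspan5 fell to 52.2 ± 2.76 CPM with PSNPs, against 110.4 ± 10.2 CPM with IR-813, and Tspan17 rose to 25.4 ± 5.94 CPM with PSNPs, against 8.82 ± 1.13 CPM with IR-813 (SD, n = 3 each). Frmd8, which stabilises the iRhom and ADAM17 complex, rose to 365 ± 25.9 CPM with PSNPs, against 256 ± 0.421 CPM with IR-813, while the iRhom genes Rhbdf1 and Rhbdf2 and the convertase gene Furin did not pass. The convertase genes Pcsk5 (−1.94 ± 0.33) and Pcsk6 (−0.65 ± 0.09) fell and Bsg (0.87 ± 0.13), which encodes the MMP inducer basigin, rose on the log2 scale. Reck, which encodes a membrane inhibitor of MMPs, stood at 14.8 ± 1.90 CPM with PSNPs and 17.6 ± 0.234 CPM with IR-813 and did not pass.

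In the plasminogen system, which can activate MMP precursors, 3 of 7 tested genes rose and 2 fell (71.4% called), with a median log2 fold change of −0.02. The counts were also 3 and 2 without PSNPs replicate 3, beside 59.9% of all genes called in that setting (30.4% higher, 29.5% lower). The activator genes Plau and Plat rose by 0.73 ± 0.16 and 0.55 ± 0.07 on the log2 scale. Serpine2, which encodes an inhibitor of both, rose to 2029 ± 41.8 CPM with PSNPs, against 502 ± 38.9 CPM with IR-813 (2.02 ± 0.10). The inhibitor gene Serpinb2 and the urokinase receptor gene Plaur fell, at −4.39 ± 0.62 and −0.74 ± 0.22. Serpinb2 rested on 1, 2 and 0 counts with PSNPs and 30, 31 and 16 counts with IR-813. Plaur was not called when either of IR-813 replicates 1 and 2 or either of PSNPs replicates 1 and 2 was left out, or with the replicate block, and 13 alternatives gave adjusted p from 0.00367 to 0.128.

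Of 26 tested genes whose products are cut by ADAMs, 5 rose, 12 fell and 9 did not pass (65.4% called), with a median of −0.20. Without PSNPs replicate 3, 8 rose and 13 fell, beside 59.9% of all genes called (30.4% higher, 29.5% lower). Among ligands of EGF-family receptors Tgfa fell to 12.3 ± 1.21 CPM with PSNPs, against 48.5 ± 3.47 CPM with IR-813, and Hbegf to 128 ± 3.05 CPM, against 306 ± 75.8 CPM with IR-813. Nrg1 (−1.37 ± 0.22) and Ereg (−2.11 ± 0.41) fell and Areg (0.93 ± 0.18) rose on the log2 scale. Btc (−0.97 ± 0.26) also fell, a call that was lost without PSNPs replicate 1 (edgeR adjusted p = 0.0661) and without IR-813 replicate 1 (0.0881) or 2 (0.0839), and 13 alternatives gave 0.00565 to 0.0881. The membrane-bound chemokine genes Cx3cl1 and Cxcl16 rose, to 145 ± 2.40 CPM with PSNPs, against 56.3 ± 2.89 CPM with IR-813, for Cx3cl1, and by 1.10 ± 0.11 on the log2 scale for Cxcl16. The adhesion genes Ncam1 (−2.79 ± 0.20) and L1cam (−2.86 ± 0.20) fell, and Cdh2, the N-cadherin gene, rose (0.66 ± 0.15), a call that was lost without IR-813 replicate 2 (edgeR adjusted p = 0.0547, and 13 alternatives gave 1.85e-05 to 0.0547).

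Of 15 tested genes of proteins that ADAMTS enzymes cut or that bind them in the matrix, 2 rose, 6 fell and 7 did not pass (53.3% called), with a median of −0.44. Besides neural matrix genes the list holds genes that are not particular to neural matrix, among them Thbs1, Vwf, Fn1, Fbn1 and Fbn2. The deepest fall in this list was that of the thrombospondin gene Thbs1, to 8.85 ± 1.64 CPM with PSNPs, against 163 ± 36.7 CPM with IR-813 (log2 fold change −4.20 ± 0.23). The brevican gene Bcan fell to 210.3 ± 22.2 CPM with PSNPs, against 442 ± 42.9 CPM with IR-813, and the aggrecan gene Acan to 0.526 ± 0.211 CPM, against 3.97 ± 0.748 CPM with IR-813. The tenascin genes Tnr (−3.68 ± 0.66) and Tnc (−1.66 ± 0.27) fell too, and the link protein genes Hapln3 (2.16 ± 0.35) and Hapln4 (1.38 ± 0.19) rose on the log2 scale. The fibrillin gene Fbn2 (−1.23 ± 0.39) fell as well, but was not called without PSNPs replicate 1 (edgeR adjusted p = 0.0612) or without IR-813 replicate 1 (0.118), 2 (0.102) or 3 (0.0893), and 13 alternatives gave 2.26e-04 to 0.118. The neurocan gene Ncan stood at 4150, 4613 and 1990 CPM with PSNPs and at 2545, 2489 and 2295 CPM with IR-813 and did not pass. It was called higher without PSNPs replicate 3 (0.84, edgeR adjusted p = 6.73e-05) and with the length correction (0.81, 0.0127), and 13 alternatives gave 6.73e-05 to 0.397. Fn1 (0.77 ± 0.27) and Reln (0.86 ± 0.35) did not pass either, and both were called higher without PSNPs replicate 3 (1.04 and 1.19). Without PSNPs replicate 3, 7 genes of this list rose and 6 fell of 16 tested, beside 59.9% of all genes called (30.4% higher, 29.5% lower).

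The 19 members under the count filter were not tested. Of these, 9 had no count in any library, Adam26a, Adam28, Adam34, Adam3a, Adam5, Adam6, Adam7, Mmp21 and Mmp27, for which a count of 0 allows up to between 0.133 and 0.157 CPM per library, a limit that covers counting error only. The other 10 had at most 12 counts in any library. They were the ADAM genes Adam2, Adam30, Adam32 and Adam4, the ADAMTS genes Adamts18 and Adamts19, the collagenase genes Mmp1 and Mmp8, the matrilysin gene Mmp7 and the enamelysin gene Mmp20. Adam4l1 may share reads with its namesake Adam4, so its value is uncertain.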

How the data were processed

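Raw read counts per gene symbol for 6 libraries were deposited by the authors as 1 table, together with a file of log2 values per library whose scaling no label or header states. The submitters' processing notes name bcl2fastq and mRatBN7.2. No aligner, counter, annotation or strand setting was named there or in the labels. Groups came from the sample titles, and the columns (con for IR-813, NPS for PSNPs) from the file of each sample. From the counts, 11679 genes passed filterByExpr, were scaled by TMM and fitted in R 4.3.3 by edgeR 4.0.16 (glmQLFit, glmQLFTest, treatment as the only term, Benjamini-Hochberg over all tested genes, common biological coefficient of variation 0.159). Levels are CPM on TMM-scaled library sizes, and the SE is the log2 fold change divided by the square root of F. DESeq2 1.42.0, limma 3.58.1 on the deposited log2 values, other scalings and left-out libraries were alternatives, and the scripts were tested on simulated data.

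The length proxy was the count divided by the library total and by the unlogged deposited log2 value (2 to its power, less a pseudocount of 1). For 99.8% of 10848 genes it did not exceed the gene's span on GRCr8. That span includes introns, so this is a loose upper bound and does not show that the proxy equals transcript length. The length correction removed each library's loess trend on it and was added after the data were seen. The ratio of PSNPs replicate 3 to the other PSNPs libraries had 0.5 CPM added to each side. Promoter windows came from RefSeq, GRCr8. The members and lists were chosen with earlier results of these data known. Every TIMP, the 5 largest called changes with at least 1 CPM and the 3 highest levels in each subfamily (ADAMTS with ADAMTS-like) and 8 well-known members were named by rule. The other members are given for completeness, and genes of related lists were named from those called and, where they did not pass, after their values were seen. Listed genes without a row in the table were not analysed here. A gene of the plasminogen list is not reported here.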

Additional observations from a re-analysis of the deposited data

How the results depend on the processing

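Over 13 alternatives the family's 23 calls ranged from 17 (without IR-813 replicate 2) to 30 (without PSNPs replicate 3), the 12 higher members from 10 to 17 and the 11 lower ones from 7 to 13, and the 4790 calls over all genes from 2812 to 7069, all with 1 library left out. Of 24 members named by rule, 22 kept their direction in every alternative and 15 also their side of the threshold. Mmp15, at 0.01, was at −0.066 with library size only and between −0.034 and 0.073 when 1 library was left out (−0.014 and −0.029 among these values), and Timp2, at 0.09, was at −0.025 with the length correction; neither was called, and the cause was not tested. With no factor beyond library size, 1943 genes were higher and 2852 lower, in place of 2439 and 2351. The replicate block left 24 family calls and 4159 over all genes, but equal numbers only named libraries: same-numbered deviations correlated at −0.01, 0.01 and 0.12, and PSNPs replicate 2 correlated best with IR-813 replicate 1 (0.18). On the deposited log2 scale, whose pseudocount of 1 understates low genes, the folds of Adam11 (−2.49), Mmp3 (−1.25) and Mmp10 (−0.61) were smaller by over 1.5 times. Counts of 1 to 31 per library limit Mmp10.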
